A study of Mus musculus with 12 samples.

Results

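The phagocyte NADPH oxidase was described in tumour-associated macrophages through 5 of its subunit genes, Cybb, Cyba, Ncf1, Ncf4 and Rac2. They were taken from the 24781 genes of the table by name, with their values under picrotoxin and DMSO known. They were chosen by their molecule counts in these groups, so the change between the groups is given as a description, and calls on it are counted only beside their share among all genes. All 5 were among the 9580 genes with a mean above 1 normalised molecule per library.

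MC38 cells, from a colon adenocarcinoma of the mouse, were grown as tumours in the skin of wild-type animals. The mice received picrotoxin, which blocks the ionotropic receptor for GABA, or its solvent DMSO, by intraperitoneal injection that began before the tumour cells and was repeated until collection. On day 7, 100 CD45+CD11b+F4/80high cells were sorted from tumour for each library, and 6 DMSO and 6 picrotoxin libraries were made. The study used adult mice of C57BL/6J or C57BL/6N background and both sexes, but strain, sex and age are not tied to a library here. The methods give a mouse to each library, whereas a legend counts fewer mice than libraries. p-values over libraries would be too small if some shared a mouse.

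The oxidase moves electrons from NADPH in the cytosol across the membrane to oxygen and so makes superoxide, which phagocytes use against microbes and in signalling. Cybb encodes gp91phox (NOX2), the catalytic chain, and Cyba encodes p22phox, its membrane partner. In a resting cell Ncf1 (p47phox, the organiser) and Ncf4 (p40phox, which binds phosphoinositides) stay in the cytosol. On activation they move to the membrane together with the small GTPase Rac, which is Rac2 in many blood cells and Rac1 in most other tissues. Loss of either membrane chain or of Ncf1 causes chronic granulomatous disease.

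Cybb lies on chromosome X (9435252 to 9487771, minus strand) and no annotated gene overlaps it. Cyba lies on chromosome 8 (122424776 to 122432930, minus strand), and Gm20388 overlaps it on the other strand. Ncf1 lies on chromosome 5 (134220053 to 134229625, minus strand), and its 3′ end lies inside Gtf2ird2 on the other strand, with 4303 of its 9573 bases shared. Ncf4 (78244801 to 78262580, plus strand) and Rac2 (78559167 to 78572783, minus strand) both lie on chromosome 15. Positions are those of GENCODE M21 on GRCm38, the assembly also called mm10. Whether counting used strand was not stated, so molecules of Ncf1 and Gtf2ird2 cannot be told apart by strand, nor those of Cyba and Gm20388. Gtf2ird2 itself had 0.921 to 9.82 normalised molecules per library, below every value of Ncf1. Rac2 shares segments of at most 122 bases with 3 other genes.

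The start-site windows of the membrane chains and of Ncf1 are shown because myeloid transcription of Cybb is known to use PU.1 and interferon regulatory factors. Each runs from 100 bases before the start to 20 after it, on the strand of the gene, from RefSeq on GRCm38.p6. The Cybb window lies inside the gene span given above, at a start downstream of the 5′ end in GENCODE, whereas those of Cyba and Ncf1 lie at the 5′ end of theirs. The RefSeq table had windows for 3 of the 5 genes. Ncf4 and Rac2 had none in it. Cybb (chrX:9469305-9469424), Cyba (chr8:122432921-122433040) and Ncf1 (chr5:134229606-134229725) read as follows, all on the minus strand.
Cybb: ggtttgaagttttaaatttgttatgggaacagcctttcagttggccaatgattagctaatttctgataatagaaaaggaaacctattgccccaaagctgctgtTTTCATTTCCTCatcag
Cyba: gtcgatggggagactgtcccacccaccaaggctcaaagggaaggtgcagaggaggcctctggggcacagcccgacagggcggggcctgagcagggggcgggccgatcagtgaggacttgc
Ncf1: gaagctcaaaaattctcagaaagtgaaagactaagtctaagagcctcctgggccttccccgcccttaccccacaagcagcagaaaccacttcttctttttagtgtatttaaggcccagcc
Capitals mark 2 overlapping matches, both read on the opposite strand. They are the PU.1-type core GAGGAA at 10 to 15 bases after the start, and the ETS-IRF composite, GGAA then 2 free bases then GAAA, at 4 to 13 bases after it. On both strands, GAGGAA occurred in 12% of 32851 windows of this length and the composite in 1.08%. The windows of Cyba and Ncf1 held neither string of letters. A match is a string of letters and not a measured site.

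Libraries held 201697 to 309617 molecules, and the labels gave no batch. Earlier results of these data had set libraries numbered 1 and 2 apart from 3 to 6, so values within 3 to 6 are also given. Markers of sorted macrophages were abundant, at 1999 to 3161 molecules per library over 12 genes. Neutrophils, which express this oxidase strongly, were represented by 5 to 10 marker molecules in DMSO and 4 to 12 in picrotoxin libraries over 12 genes. Of these 12, 8 were at 0 in every library, S100a9, Ly6g, Retnlg, Camp, Ltf, Ngp, Mpo and Elane. Fibroblast and matrix markers (13 genes, Fap at 0) reached 15 to 710 molecules in DMSO and 9 to 44 in picrotoxin libraries. DMSO replicates 5, 3 and 6 held most, at 710, 190 and 110, and all of these are among the libraries numbered 3 to 6. Of the 9 matrix markers tested, 8 were lower with picrotoxin at an unadjusted p under 0.05 in edgeR and 0 at an adjusted p under 0.05. In sorted pools of this kind, fewer cells of a type and less RNA per cell cannot be told apart.

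The catalytic chain was the subunit with the largest difference between the groups. Cybb was at 264, 238, 204, 211, 199 and 190 normalised molecules in DMSO replicates 1 to 6. In picrotoxin replicates 1 to 6 it was at 291, 272, 269, 274, 263 and 244. All 6 picrotoxin libraries lay above the DMSO mean, and the groups overlapped only through DMSO replicate 1. The means were 217.7 ± 28.1 in DMSO and 269 ± 15.3 under picrotoxin (SD, n = 6). The fitted log2 fold change was 0.32 ± 0.10 (SE), or 1.25-fold.

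Within libraries numbered 3 to 6, Cybb ran from 190 to 211 in DMSO and from 244 to 274 in picrotoxin libraries, with no overlap. The log2 fold change there was 0.41. Higher values without overlap in these 8 libraries were found for 2.16% of all tested genes. Over all 12 libraries, 0 of the 5 subunits separated the groups, against 0.198% of genes separated with picrotoxin higher and 0.188% with picrotoxin lower. With fibroblast and matrix markers as a term in the model, the log2 fold change of Cybb was 0.24, and without DMSO replicates 3 and 5 it was 0.26.

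The membrane partner showed a wide spread in DMSO and a narrow one with picrotoxin. Cyba was at 235, 209, 122, 219, 177 and 161 normalised molecules in DMSO replicates 1 to 6 and at 192, 222, 192, 195, 183 and 207 in picrotoxin replicates 1 to 6. The picrotoxin values lay inside the DMSO range, and DMSO replicate 3 was the lowest of all 12. The means were 187 ± 42.0 and 198.4 ± 13.9 (SD, n = 6). The fitted log2 fold change was 0.10 ± 0.12 (SE). Its sign rested on DMSO replicate 3: without that library the value was -0.00088, without DMSO replicates 3 and 5 it was -0.05, and with the matrix term -0.03.

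gp91phox and p22phox stabilise each other in the membrane, and the ratio of their transcripts was read in each library. There were 1.20 ± 0.24 molecules of Cybb per molecule of Cyba in DMSO and 1.36 ± 0.13 under picrotoxin (SD, n = 6). The ratio ran from 0.962 to 1.67 in DMSO and from 1.18 to 1.52 in picrotoxin libraries, so the groups overlapped. DMSO replicate 3, where Cyba was low, held the highest ratio, and the other 5 DMSO libraries lay at 1.18 or below.

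**Figure D1:**
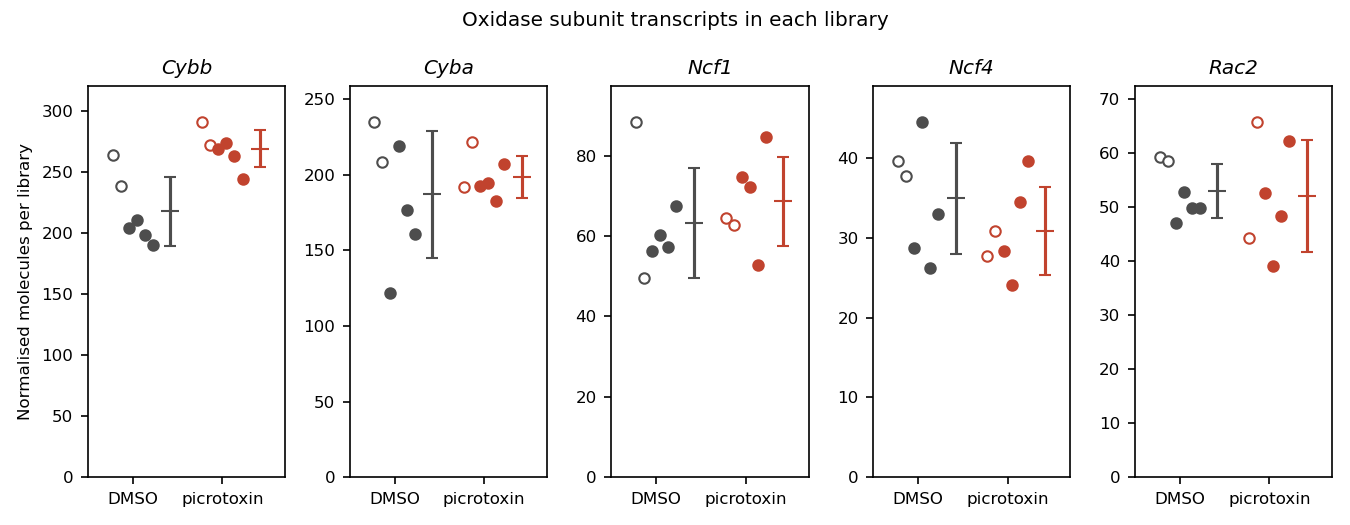
Normalised molecules per library (vertical axis, from 0) of the 5 oxidase subunits. Each point is a library, in order of replicate number from left to right, with numbers 1 and 2 open and 3 to 6 filled, and bars to the right give mean ± SD (n = 6); Cybb is above the DMSO mean of 217.7 in all 6 picrotoxin libraries, whereas the groups overlap broadly for the other subunits.

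Of the cytosolic subunits, none had groups that stood apart. Ncf1, the organiser, had a lowest value of 49.6, a median of 58.8 and a highest value of 88.4 normalised molecules in DMSO. With picrotoxin the lowest was 52.9, the median 68.4 and the highest 84.7. DMSO replicate 1 held the highest value of all, and picrotoxin replicate 5 was among the lowest. The means were 63.2 ± 13.6 and 68.6 ± 11.0 (SD, n = 6). The fitted log2 fold change was 0.13 ± 0.14 (SE).

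Ncf4 was the subunit with the lowest number of molecules. It ran from 26.2 through a median of 35.3 to 44.5 normalised molecules in DMSO, and from 24.1 through 29.6 to 39.6 with picrotoxin. It was above the DMSO mean in 1 of 6 picrotoxin libraries, yet the ranges coincided for most of their length. The means were 34.9 ± 6.94 and 30.8 ± 5.53 (SD, n = 6). The fitted log2 fold change was -0.17 ± 0.17 (SE).

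Rac2, the GTPase, ran from 47.1 through 51.4 to 59.3 normalised molecules in DMSO and from 39.1 through 50.4 to 65.8 with picrotoxin. The picrotoxin libraries spread to both sides of the DMSO range. The means were 52.9 ± 5.01 and 52.0 ± 10.3 (SD, n = 6). The fitted log2 fold change was -0.01 ± 0.14 (SE). Rac2 made up 31.3% ± 1.64 of the molecules of Rac1 and Rac2 together in DMSO and 31.8% ± 3.11 under picrotoxin (SD, n = 6), not corrected for length. Its share ran from 28.4% to 33.1% and from 28.8% to 36.9%, so neither GTPase gained on the other beyond the spread between libraries.

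The 5 subunits together reached 555.8 ± 82.7 normalised molecules in DMSO and 618.8 ± 24.9 under picrotoxin (SD, n = 6), or 0.242% ± 0.0367 and 0.261% ± 0.00992 of all molecules. Their sum ran from 458 to 687 in DMSO and from 582 to 653 in picrotoxin libraries, so the picrotoxin values lay inside the DMSO range. In edgeR, 0 of the 5 had a Benjamini-Hochberg adjusted p under 0.05, where 0.0522% of tested genes had one. At an unadjusted p under 0.05, which 7.77% of tested genes had, Cybb alone was higher, against 3.65% of genes, and 0 were lower, against 4.11%. By the rule of the study, an unadjusted p under 0.05 in DESeq2, 1 of 5 passed, against 3.82%. Nothing is read from these counts, since this comparison chose the genes. The log2 fold change was positive for 3 of 5, with a median of 0.10, beside a median of -0.01 over all tested genes.

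Spread between libraries of a group was set against counting error for each subunit. Chi-square per degree of freedom within groups, which is 1 for counting error alone, was 1.24 for Ncf4 and 1.25 for Rac2. It was 2.26 for Ncf1, 2.37 for Cybb and 5.28 for Cyba. The values of Ncf4 and Rac2 thus scattered little more than their totals of 406 and 647 molecules over 12 libraries allow. Cyba, with 2373, exceeded counting error most, with both groups pooled. Its SD was 42.0 normalised molecules in DMSO and 13.9 with picrotoxin. The measure grows with counts, so it does not rank the relative scatter of the subunits.

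Levels were also ranked between subunits per kilobase of the longest coding transcript. Counting from oligo-dT primers need not scale with length, so the order is that of this scale. Without division by length, the mean of Cybb stood above that of Cyba, at 217.7 against 187 in DMSO and 269 against 198.4 with picrotoxin. Cyba was highest, at 251 ± 56.4 normalised molecules per kilobase in DMSO and 267 ± 18.6 with picrotoxin (SD, n = 6). Cybb followed at 45.8 ± 5.91 and 56.6 ± 3.22, and the ranges of these membrane chains did not overlap each other or those below. Rac1 was next, at 28.0 ± 2.48 and 26.7 ± 3.54.

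Ncf4 (23.9 ± 4.74 and 21.1 ± 3.78 per kilobase) and Ncf1 (21.9 ± 4.73 and 23.8 ± 3.82) overlapped each other and Rac1 and changed places between the groups. Rac2 stood at 17.4 ± 1.65 and 17.1 ± 3.40 per kilobase (SD, n = 6), with a range that overlapped those of Ncf4 and Ncf1.

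Subunits varied together between libraries of a group to different degrees. Deviations from the group mean in log2 CPM were correlated over 12 libraries for the 10 pairs of subunits, with exact permutation within groups and adjustment over the 10 pairs. Pearson's r was positive for 10 of 10 pairs. For 6 of them it was negative once the 2 libraries farthest from the median of the first gene named in the pair were left out. Cyba and Rac2 had r = 0.58 (exact permutation, adjusted p = 0.0171) and a Spearman's rho of 0.61 (adjusted p = 0.0733, exact permutation). Without the libraries farthest from the median, DMSO replicates 3 and 1, r was 0.58. Within libraries 3 to 6 it was 0.36 (exact permutation, adjusted p = 0.174, n = 8). When DMSO replicate 1 or 3 was left out, or DMSO replicates 3 and 5 together, 0 of the 10 pairs had an adjusted p under 0.05.

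Ncf4 and Rac2 had r = 0.66 and rho = 0.71 (exact permutation, adjusted p = 0.0899 and 0.0733), with 0.61 without picrotoxin replicate 6 and DMSO replicate 5, and 0.72 within 3 to 6. Cybb and Cyba had r = 0.61 and rho = 0.61 (exact permutation, adjusted p = 0.331 and 0.287), which rested on DMSO replicates 1 and 2, as r was 0.32 without them and 0.16 within 3 to 6. Cyba and Ncf4 had r = 0.61 and rho = 0.58 (exact permutation, adjusted p = 0.183 and 0.253). Without the farthest libraries, DMSO replicates 3 and 1, their r was 0.56. The other 6 pairs had r between 0.23 and 0.36, and between -0.31 and -0.04 without their 2 farthest libraries, so their positive sign rested on those libraries. Libraries farthest in the second gene were not left out in turn. All values of a library share its total and scaling.

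Among 703 other genes with a mean of at least 50 normalised molecules, the genes whose deviations were most like the mean of the 5 subunits over 12 libraries were Irf8 (r = 0.90), Arhgdib (0.896), Gnai2 (0.88), B2m (0.87) and Csf1r (0.87). Within libraries 3 to 6 these values were 0.83, 0.77, 0.93, 0.82 and 0.88. Irf8 is a myeloid transcription factor, Arhgdib restrains Rac, Gnai2 is a G protein chain downstream of chemoattractant receptors, B2m is the light chain of MHC class I and Csf1r is the receptor that macrophages need for survival. Rac1 was at rank 136 (r = 0.61) and Spi1, which encodes PU.1, at rank 159 (r = 0.58, rho = 0.20). Within libraries 3 to 6 their r was 0.66 and -0.15. Irf8 overlaps Gm20388 on its own strand, the gene that overlaps Cyba on the other strand, and Gnai2 and Csf1r each overlap 1 annotated gene on their strand. These correlations are a description, and libraries share depth and composition.

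The matrix share moved with the subunits as well. The mean log2 CPM of the 5 subunits and the log2 share of fibroblast and matrix markers, both as deviations from the group mean, had r = -0.80 (exact permutation p = 0.00942) and rho = -0.83 (exact permutation p = 0.00563) over 12 libraries. Without DMSO replicates 5 and 2, the farthest from the median, r was -0.87. Within libraries 3 to 6 it was -0.71 (exact permutation p = 0.0816, n = 8) and rho was -0.69 (exact permutation p = 0.122). DMSO replicates 3, 5 and 6 held the 3 lowest sums of subunits, at 458, 509 and 502 normalised molecules. This correlation was not computed for other genes, so it is not shown to be particular to the subunits. Both measures are also shares of the same library. The part of matrix transcripts in the values of the subunits was not tested.

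**Figure D2:**
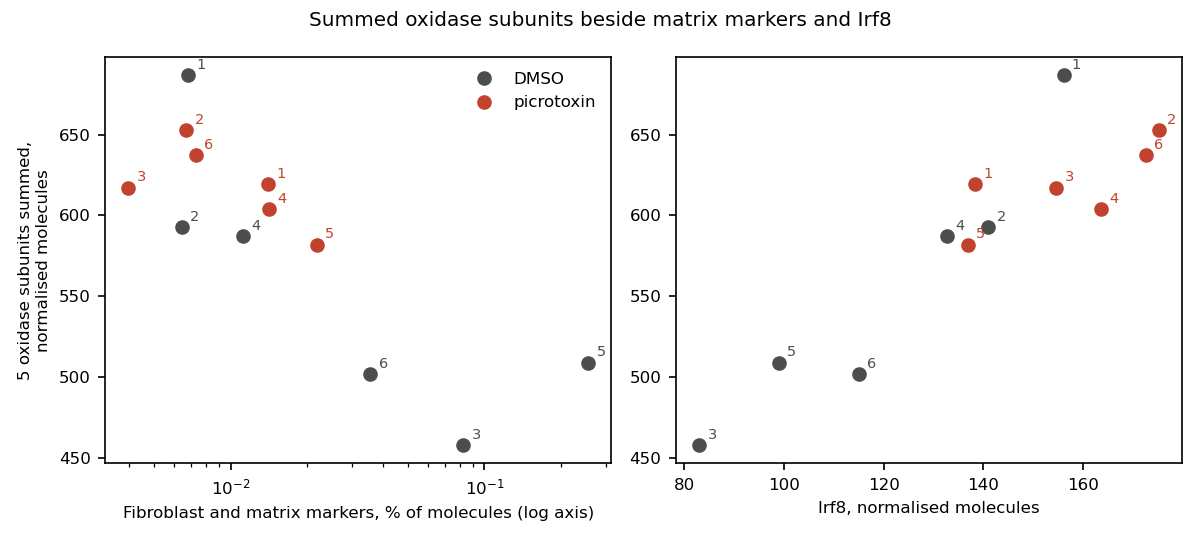
Sum of the 5 oxidase subunits in normalised molecules (vertical axes, not from 0) against the percent of molecules from fibroblast and matrix markers (left, log axis) and against Irf8 in normalised molecules (right). Each point is a library, numbered by replicate; DMSO replicates 3, 5 and 6 hold the lowest sums, at 458, 509 and 502, the highest matrix shares and the lowest Irf8.

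The remaining parts of the complex and its assembly did not pass. Of the 7 tested, 0 passed in edgeR after adjustment and 0 at an unadjusted p under 0.05, with log2 fold changes from -0.22 to 0.23. Rac1 was at 116.5 ± 10.3 and 110.9 ± 14.7 normalised molecules (SD, n = 6). The difference on the log2 scale was -0.06 ± 0.11 (SE; adjusted p = 0.946 in edgeR).

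Rap1a, a GTPase that copurifies with the membrane chains, had a log2 fold change of 0.16 ± 0.14 (SE) and an adjusted p of 0.844 in edgeR, and overlaps 4 annotated genes on its strand. BC017643, placed in this list from general knowledge, was at 4.16 to 12.3 normalised molecules in DMSO and 7.43 to 18.4 with picrotoxin. It had a log2 fold change of 0.23 ± 0.27 (SE; adjusted p = 0.904 in edgeR). The name is given as in the table, and the reference annotation used here did not match it to a gene.

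No other NADPH oxidase was counted beyond single molecules. Over all 12 libraries, Nox1 had 1 molecule, Noxo1 had 2, and Nox3, Nox4, Duox1, Duox2, Noxa1, Duoxa1 and Duoxa2 had 0. A count of 0 allows a share of up to 0.00149% in the smallest library (3 molecules), which covers counting error only. Poldip2, a partner of Nox4 with other roles, had 84 molecules in 12 libraries and a log2 fold change of -0.26 ± 0.35 (SE; adjusted p = 0.926 in edgeR). The catalytic chain detected in these macrophages was thus Cybb.

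Genes that act around the oxidase were read from 9 lists drawn from general knowledge. Earlier results of these data were known when the lists were drawn, so their counts and shares are a description only. Of the 109 tested, 0 had an adjusted p under 0.05 in edgeR. At an unadjusted p under 0.05, 14 were higher with picrotoxin and 1 lower, so that 12.8% of the tested list genes were higher, beside 3.65% of all tested genes, and 1 of 109 was lower, beside 4.11%. Many list genes had high counts. Among genes with a mean above 10, 11 of 89 list genes were higher (12.4%), beside 5.48% of all 3741 such genes. In DESeq2 8 were higher and 0 lower, and in limma-voom 15 and 0, with 0 at an adjusted p under 0.05 in either. The median log2 fold change of the lists was 0.07 and 69 of 109 were positive, beside 4709 of 9580 genes.

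With library totals in place of TMM, 9 list genes were higher and 3 lower, beside 215 and 530 of all genes (350 and 394 with TMM).

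The count of higher list genes moved with the matrix transcripts. With their score as a term, 5 of 109 list genes were higher (4.59%, beside 2.89% of all genes), and without DMSO replicates 3 and 5, 6 were (5.50%, beside 2.73%). In libraries 3 to 6 alone, 20 of 110 were higher (18.2%, beside 4.69%), and Clec7a (adjusted p = 0.00477) and Irf8 (0.0394) passed the adjusted test of edgeR. This subset keeps DMSO replicates 3, 5 and 6, which held the most matrix markers. It leaves out DMSO replicates 1 and 2, at 15 matrix molecules each. The part of matrix transcripts in these calls was not tested.

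Receptors that trigger the oxidase held the most, with 5 of 18 higher, 0 lower and 17 positive (median 0.27). Itgam, the αM chain of the complement receptor and a marker of the sort gate, was at 137 ± 39.0 normalised molecules in DMSO and 177.5 ± 14.0 with picrotoxin (SD, n = 6). On the log2 scale the difference was 0.38 ± 0.13 (SE; adjusted p = 0.408 in edgeR), and its count is uncertain because it shares 3454 bases with Gm49368. Clec7a (Dectin-1, the receptor for fungal β-glucan) was at 119 ± 11.3 and 155 ± 44.2 normalised molecules (SD, n = 6). Its log2 fold change was 0.39 ± 0.14 (SE; adjusted p = 0.408 in edgeR). It was above the DMSO mean in 4 of 6 picrotoxin libraries, and the lowest picrotoxin library, at 101, lay below every DMSO library. C5ar1, the receptor for the complement fragment C5a, had a log2 fold change of 0.33 ± 0.14 (SE; adjusted p = 0.561 in edgeR), and 6 of 6 picrotoxin libraries exceeded the DMSO mean.

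Among the kinases and lipid kinases that activate the complex, 3 of 21 were higher and 0 lower. Lyn, a Src-family kinase, was at 95.7 ± 14.9 normalised molecules in DMSO and 128 ± 18.1 with picrotoxin (SD, n = 6). The difference on the log2 scale was 0.44 ± 0.12 (SE) with an adjusted p of 0.242 in edgeR. The count of Lyn is uncertain, as it shares 1050 bases with Gm11787. Pik3cg, the PI 3-kinase chain downstream of G proteins, had a log2 fold change of 0.54 ± 0.19 (SE; adjusted p = 0.408 in edgeR). Syk, the kinase downstream of Fc receptors and Dectin-1, had one of 0.45 ± 0.18 (SE; adjusted p = 0.499 in edgeR). All 3 were above the DMSO mean in 6 of 6 picrotoxin libraries.

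Of 14 genes that load or restrain Rac, 2 were higher and 0 lower. Arhgdib was at 132 ± 19.9 and 158 ± 15.0 normalised molecules (SD, n = 6). It had a log2 fold change of 0.27 ± 0.11 (SE; adjusted p = 0.514 in edgeR). Dock2, an exchange factor for Rac in blood cells, had a log2 fold change of 0.35 ± 0.17 (SE; adjusted p = 0.631 in edgeR) and was above the DMSO mean in 5 of 6 libraries. Arhgdib restrains Rac and Dock2 activates it.

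Of 14 genes for charge balance and NADPH supply, 1 was higher and 1 lower. Hvcn1, the proton channel that balances the charge the oxidase moves, was at 5.77 ± 1.75 normalised molecules in DMSO and 9.27 ± 1.73 with picrotoxin (SD, n = 6). It was above the DMSO mean in 6 of 6 libraries, and its log2 fold change was 0.73 ± 0.29 (SE; adjusted p = 0.495 in edgeR). Me1, the cytosolic malic enzyme, was at 0 to 6.54 normalised molecules in DMSO and 0 to 2.01 with picrotoxin, and it shares up to 1716 bases with Gm7049 and Gm7329, so its count is uncertain. Its log2 fold change of -1.84 (standard error 0.82, adjusted p = 0.606 in edgeR) rested on these few molecules.

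Of 15 transcription factors of subunit genes, 2 were higher, 0 lower and 13 positive. Irf8 was at 83.0 to 156 normalised molecules in DMSO and 137 to 175 with picrotoxin. It was above the DMSO mean in 6 of 6 libraries, and its log2 fold change was 0.39 ± 0.13 (SE; adjusted p = 0.341 in edgeR). Stat3 had a log2 fold change of 0.35 ± 0.14 (SE; adjusted p = 0.495 in edgeR). Spi1 had a log2 fold change of 0.10 ± 0.12 (SE; adjusted p = 0.921) and Irf1 one of 0.22 ± 0.18 (SE; adjusted p = 0.827), both in edgeR.

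Enzymes that dispose of superoxide and peroxide gave 0 of 15 at an unadjusted p under 0.05, with log2 fold changes from -0.74 to 0.18 and 6 positive. Of 4 tested enzymes that make other oxidants, Nos2, the inducible nitric oxide synthase, was the one past an unadjusted p of 0.05. It was at 9.11 ± 3.20 normalised molecules in DMSO and 14.5 ± 3.16 with picrotoxin (SD, n = 6), above the DMSO mean in 6 of 6 libraries. On the log2 scale the difference was 0.65 ± 0.25 (SE; adjusted p = 0.479 in edgeR).

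**Figure D3:**
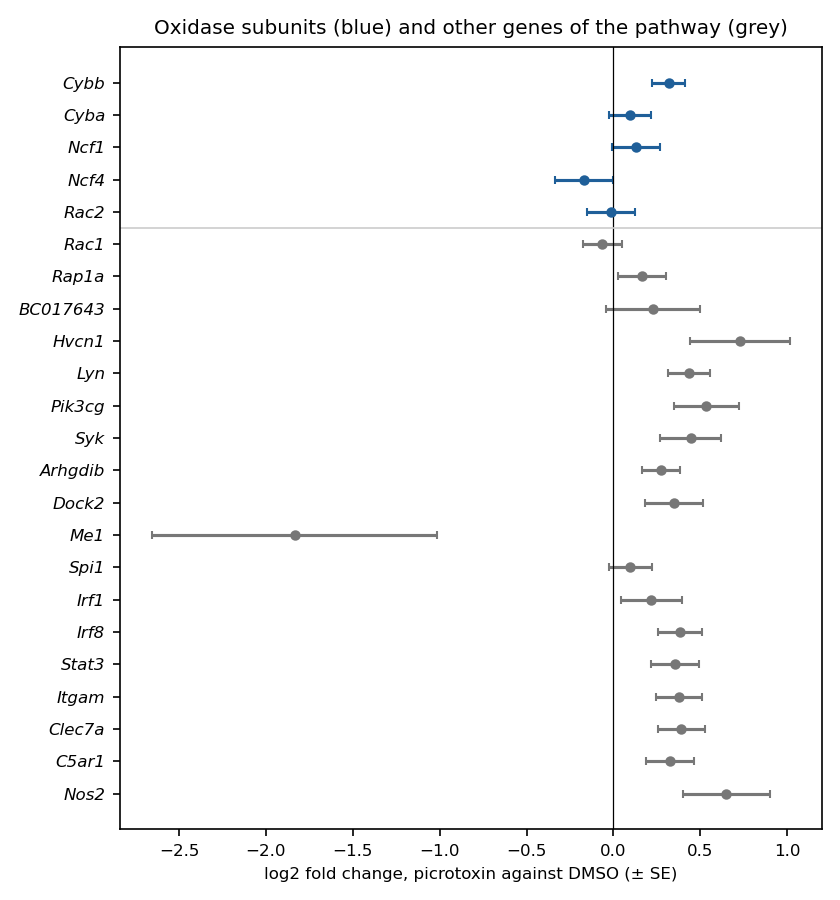
log2 fold change of picrotoxin against DMSO ± SE (horizontal axis, edgeR, 6 libraries a group) for the 5 oxidase subunits (blue) and for genes of the oxidase lists named in the text (grey). Poldip2 is not shown. Cybb is at 0.32, the other subunits lie between -0.17 and 0.13, and Me1, at -1.84, rests on at most 6.54 normalised molecules per library.

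Each of 24 alternatives moved the log2 fold change of each subunit by less than 1 pooled SD of log2 CPM within groups. This limit is wide, since Cyba and Rac2 changed sign without passing it. Cybb stayed positive in 24 of 24, from 0.24 to 0.41. Ncf1 was positive in 24 of 24, from 0.04 to 0.26, and Ncf4 negative in 24 of 24, from -0.33 to -0.05. Cyba was positive in 21 of 24, and Rac2 in 6 of 24.

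**Figure D4:**
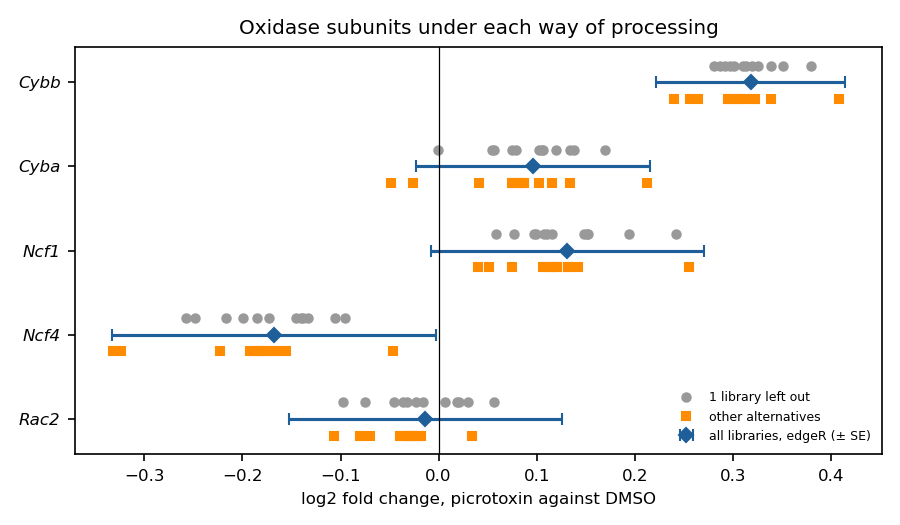
log2 fold change of picrotoxin against DMSO (horizontal axis) for each oxidase subunit with all 12 libraries in edgeR (diamonds ± SE), with 1 library left out (circles) and under the other alternatives (squares). Cybb lies between 0.24 and 0.41 throughout, and Cyba and Rac2 cross 0.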

How the data were processed

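RNA of 100 sorted tumour macrophages per library was broken by heat and reverse transcribed from barcoded oligo-dT primers. The authors mapped reads to mm10 with STAR, used refFlat gene models and deposited molecule counts, which are whole numbers per gene symbol. Libraries were grouped by the agent in the labels, with 6 a group, and each of 30 pairs of the same group differed by more than counting noise (chi-square per degree of freedom at least 1.23). How barcode errors, strand and reads with several positions were handled is not given in the sources used here.

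The 5 subunits and all gene lists were chosen with earlier results of these data known. Genes with a mean above 1 normalised molecule (count divided by the DESeq2 size factor) were fitted with edgeR 4.0.16 (R 4.3.3), TMM scaling, the quasi-likelihood test and Benjamini-Hochberg adjustment over 9580 genes. The standard error was derived from the fold change and the F statistic. DESeq2 1.42.0 and limma 3.58.1 (voom) were alternatives, and the script was tested on simulated data. Log2 CPM used a prior count of 2. Tests were two-sided. Library totals set a counting precision of 0.00149% at most for a gene at 0.

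Besides the subunits, the genes named were Rac1, Rap1a, BC017643, Hvcn1, Spi1, Irf1 and Irf8, the detected members of the list of other oxidases, up to 3 genes of each list with the smallest unadjusted p under 0.05 where none passed adjustment, and the 5 genes most like the subunits. Gtf2ird2 was named for its overlap with Ncf1. The alternatives were scaling, tool, filter, the ribosomal RNA row Rn45s left out, each library left out, libraries 3 to 6 alone or as a term, matrix markers as a term and the replicate number as a block. Leaving out DMSO replicates 3 and 5 together was added after seeing the data. For 1 further gene of the lists, values are not reported here, and counts over lists include it.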

Additional observations from a re-analysis of the deposited data

Results flagged for a closer look

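Each value was checked for a library standing away from its 5 fellows by Dixon's criterion. This happened in 5 of 70 checks, where chance gives about 1 in 20, or 3.5. The number of Cybb molecules per Cyba molecule was highest in DMSO replicate 3, at 1.67, against 0.962 to 1.18 in the other DMSO libraries. The share of fibroblast and matrix markers was highest in DMSO replicate 5, at 0.256%, against 0.00643% to 0.0826%. Syk was highest in DMSO replicate 2, at 26.8 normalised molecules against 16.7 to 19.8, and Dock2 in DMSO replicate 5, at 35.2 against 21.2 to 26.0. Itgam was lowest in picrotoxin replicate 1, at 152.1 normalised molecules against 177 to 191. No cause of these positions was tested.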

How the results depend on the processing

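The log2 fold changes of the 5 subunits moved by less than 1 pooled SD of log2 CPM within groups in all 24 alternatives. Cyba and Rac2 changed sign in some of these, so the limit is a wide one. With 1 library left out they ran from 0.28 to 0.38 for Cybb, -0.00088 to 0.17 for Cyba, 0.06 to 0.24 for Ncf1, -0.26 to -0.10 for Ncf4 and -0.10 to 0.06 for Rac2.

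Genes with an adjusted p under 0.05, 5 in all, numbered 13 with library totals, 2 in DESeq2, 3 in limma-voom, 81 with every gene of at least 1 count, 12 without Rn45s, 49 in libraries 3 to 6, 27 with numbers 1 and 2 as a term, 0 with the matrix term (549 at an unadjusted p under 0.05), 1 without DMSO replicates 3 and 5, and 0 to 25 with 1 library left out. Genes with an unadjusted p under 0.05, 744 in all, numbered 366 in DESeq2 and 396 with a mean above 10. With library totals 215 were higher and 530 lower, beside 350 and 394 with TMM. List genes with an unadjusted p under 0.05, 15 in all, numbered 8 in DESeq2, 23 in libraries 3 to 6, 7 with the matrix term, 7 without DMSO replicates 3 and 5 and 10 to 18 with 1 library left out. List genes with an adjusted p under 0.05, 0 in all, numbered 2 in libraries 3 to 6.

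Correlated pairs of subunits past an adjusted p of 0.05, 1 in all, numbered 0 in libraries 3 to 6, 0 without DMSO replicates 3 and 5, and 0 to 2 with 1 library left out. In libraries 3 to 6 the r of Cybb turned to -0.39 with Ncf1, -0.13 with Ncf4 and -0.52 with Rac2. Without DMSO replicates 3 and 5 that of Cybb and Ncf4 turned to -0.11, and with 1 library left out that of Cybb and Ncf1 ran from -0.54, without DMSO replicate 1, to 0.44. Fewer libraries or genes enter some of these fits, and otherwise the cause was not tested.

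Same-numbered libraries deviated together in 1 of 6 pairs by over 0.1 (r from -0.0049 to 0.126). Their mean r was 0.053, beside -0.011 for the other pairs across the groups. Shared numbers were not treated as pairing, which this check does not exclude. In the fit with a replicate block, 43 genes and 1 list gene, Lyn, had an adjusted p under 0.05 in edgeR, and the log2 fold changes were 0.32 for Cybb, 0.11 for Cyba, 0.13 for Ncf1, -0.16 for Ncf4 and -0.02 for Rac2. No detection limit was computed for the subunits.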
